A study of Mus musculus with 29 samples.

Results

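Noncanonical imprinted genes of the H3K27me3 type were followed in mouse embryos made by nuclear transfer and in the cumulus cells that supplied the donor nuclei. The 6 genes Sfmbt2, Gab1, Slc38a4, Jade1, Smoc1 and Bbx were taken by symbol from a count table of 24448 gene rows, and all 6 had a row. In this form of imprinting, trimethylated lysine on histone H3, laid down in the growing oocyte by Polycomb repressive complex 2, silences the maternal copy in the early embryo without DNA methylation of a classical imprint, so that the paternal copy is the active one. Somatic nuclei have lost the mark, and both copies of such genes are known to be expressed in embryos cloned from them. The counts were not split by allele, so they give the summed level of both copies and cannot show from which copy a transcript came.

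The data came from 29 libraries of BDF1 mice: 9 control embryos, 8 embryos exposed to hydroxyurea (HU, which blocks ribonucleotide reductase and slows DNA replication) and 12 single cumulus cells. All 17 embryos were MII oocytes whose own chromosomes had been removed, injected with a cumulus cell nucleus and activated for 6 h with 10 mM Sr2+ in the presence of 5 ug/ml CB and 2 mM EGTA. They were allotted at random to medium lacking HU or containing 10 uM HU, the HU was withdrawn after 24 h, and single 2-cell embryos were collected 28 h after activation. No fertilized embryos were analysed here, so the level of these genes in an embryo that keeps the imprint is not part of the comparison. Libraries were made by Smart-seq2, which copies full-length cDNA and carries neither molecular identifiers nor strand.

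Control libraries held 1801261 to 3472116 gene counts, HU libraries 2442541 to 3757492 and cumulus libraries 317195 to 4051494. The labelled cell types were checked against their markers. The summed level of 18 cumulus and granulosa markers was 387 to 11621 CPM (counts scaled to a common library total) in the cumulus cells and 39.6 to 120 CPM in the embryos, and 9 of 12 egg markers (Zp1, Zp2, Zp3, Gdf9, Oosp1, Ooep, Zar1, Tcl1 and Padi6) had no count in any cumulus cell. One embryo stood apart from the other control embryos. Control 3 had the smallest library of the 17 embryos and no count of Sfmbt2 or Slc38a4. Its level of 2-cell stage transcripts was far higher than that of the other control embryos. Several results that rest on it are also given without it, alone or together with a second embryo.

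The 6 genes lie on 6 chromosomes of the GRCm38 build, in GENCODE M21 coordinates. Sfmbt2, which encodes a Polycomb group protein needed in the trophoblast, spans chr2:10370510-10595253 on the plus strand. Gab1, an adaptor that docks signalling proteins behind receptor tyrosine kinases, spans chr8:80764438-80880519 on the minus strand, and Slc38a4, an amino acid transporter of the placenta, spans chr15:96994820-97055956 on the minus strand. Jade1, a subunit of the HBO1 histone acetyltransferase complex, spans chr3:41555731-41616864 on the plus strand. Smoc1, a secreted matrix protein that binds calcium, spans chr12:81026808-81186414 on the plus strand, and Bbx, an HMG-box protein, spans chr16:50191844-50432390 on the minus strand. The Sfmbt2 locus also hosts a large microRNA cluster: 120 annotated genes, nearly all of them microRNAs, overlap it, and those that have a row in the count table reached at most 11 counts in any embryo. Sfmbt2 (by Gm13261), Gab1 and Jade1 are each overlapped on the opposite strand by genes that have no row in the table, and without strand such reads cannot be told from those of the named gene.

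The promoters are shown for their CpG dinucleotides, the sites at which a DNA methylation imprint would be carried. RefSeq entries for GRCm38.p6, each 300 bases from 250 before to 50 after a start site, matched 4 of the 6 genes, namely Sfmbt2, Gab1, Slc38a4 and Jade1. Where a gene had more than 1 start, the outermost upstream one is shown. Capitals mark CG, the only motif searched, which reads the same on both strands. The windows are chr2:10370201-10370500 (plus) for Sfmbt2, chr8:80880470-80880769 (minus) for Gab1, chr15:97055907-97056206 (minus) for Slc38a4 and chr3:41555484-41555783 (plus) for Jade1, all printed 5′ to 3′ on the gene's strand.
Sfmbt2: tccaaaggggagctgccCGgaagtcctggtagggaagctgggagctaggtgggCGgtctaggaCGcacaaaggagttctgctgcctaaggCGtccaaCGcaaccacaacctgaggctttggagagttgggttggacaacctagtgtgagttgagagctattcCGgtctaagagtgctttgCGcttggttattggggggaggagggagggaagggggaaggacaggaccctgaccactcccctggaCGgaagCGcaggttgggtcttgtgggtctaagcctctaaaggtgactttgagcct
Gab1: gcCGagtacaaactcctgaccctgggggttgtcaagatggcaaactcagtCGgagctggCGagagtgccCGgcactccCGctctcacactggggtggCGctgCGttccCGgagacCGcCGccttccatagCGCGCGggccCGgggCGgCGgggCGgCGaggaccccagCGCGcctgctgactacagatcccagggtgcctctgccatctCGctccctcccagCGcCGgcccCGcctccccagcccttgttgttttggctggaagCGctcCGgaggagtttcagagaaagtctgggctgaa
Slc38a4: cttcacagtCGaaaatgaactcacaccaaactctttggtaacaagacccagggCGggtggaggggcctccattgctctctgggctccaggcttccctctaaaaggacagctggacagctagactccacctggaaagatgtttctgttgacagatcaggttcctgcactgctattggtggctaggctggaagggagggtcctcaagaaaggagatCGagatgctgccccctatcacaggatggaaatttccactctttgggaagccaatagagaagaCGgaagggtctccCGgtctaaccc
Jade1: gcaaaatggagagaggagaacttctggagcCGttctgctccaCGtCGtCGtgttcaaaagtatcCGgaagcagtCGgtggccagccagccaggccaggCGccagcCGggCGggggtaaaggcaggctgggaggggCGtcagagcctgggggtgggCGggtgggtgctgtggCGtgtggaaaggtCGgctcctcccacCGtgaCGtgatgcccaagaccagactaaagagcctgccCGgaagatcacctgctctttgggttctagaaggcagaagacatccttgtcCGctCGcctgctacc
Gab1 held 26 CG in this window and Jade1 18, against 9 in Sfmbt2 and 5 in Slc38a4. Over all 32851 promoter windows of the same length the median was 7, and 16.9% held at least as many as Gab1, 29.7% as Jade1, 45.8% as Sfmbt2 and 62.0% as Slc38a4. These counts depend on the start chosen: the other start of Sfmbt2 had 16 CG and that of Gab1 28, the other 3 starts of Jade1 had 14, 38 and 25, and both other starts of Slc38a4 had 5.

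Sfmbt2, among the genes with known roles in chromatin, differed between control embryos. Its level was 0 CPM in control 3 and 10.1 CPM in control 4, with a median of 18.9 and a highest value of 45.9 CPM in control 5 (20.9 ± 13.1 CPM, SD, n = 9). The count of 0 in control 3 allows up to 1.67 CPM, 3 counts of that library. In HU embryos Sfmbt2 ran from 0.813 CPM in HU 5 through a median of 18.7 to 66.3 CPM in HU 8 (25 ± 24.7 CPM, SD, n = 8). The ranges overlapped: 2 HU embryos lay above all control embryos, none lay below, and 4 of 8 were above the control median.

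Jade1 had the highest read level of the 6 genes in embryos. It ranged from 9.44 through 53.1 to 155 CPM over the control embryos (lowest, median, highest) and from 8.92 through 71.0 to 122 CPM over the HU embryos. The HU values lay almost wholly inside the control range, with the lowest in HU 7 and HU 5 and the control embryos 1, 5 and 8 above every HU embryo. The mean was 72.6 ± 54.0 CPM (SD, n = 9) in control and 67.3 ± 39.6 CPM (SD, n = 8) in HU embryos.

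Bbx was at 11.5, 22.3 and 58.2 CPM (lowest, median, highest) in control embryos and at 6.05, 16.6 and 47.5 CPM in HU embryos. The groups overlapped, with 3 HU embryos (1, 2 and 7) below every control embryo and control 2 above every HU embryo. Means were 24.8 ± 14.2 CPM (SD, n = 9) and 20.2 ± 13.8 CPM (SD, n = 8).

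Gab1, the signalling adaptor, was the steadiest of the 6 between embryos. Control values ran from 3.30 CPM in control 1 through 33.4 to 53.6 CPM in control 8, and HU values from 10.9 CPM in HU 7 through 36.2 to 48.4 CPM in HU 6. Control 1 was below all other embryos, and apart from it the groups covered much the same range. Means were 31.4 ± 15.4 CPM (SD, n = 9) and 31.8 ± 13.5 CPM (SD, n = 8).

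Slc38a4, the transporter, had no count in 3 of 17 embryos, control 3, HU 5 and HU 7, where a count of 0 allows up to 1.67, 1.22 and 0.864 CPM. Control values ran from 0 through 7.82 to 30.7 CPM and HU values from 0 through 7.55 to 44.5 CPM. Among the control embryos 4 lay between 22.3 and 30.7 CPM and the other 5 at or below 7.82 CPM, and the HU embryos overlapped with both. Means were 14.2 ± 12.2 CPM (SD, n = 9) and 13.0 ± 15.8 CPM (SD, n = 8).

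Smoc1, the matrix protein, was close to the limit of detection in embryos. It had counts in 2 of 9 control embryos, at 3.30 CPM in control 1 and 2.33 CPM in control 7, and in 5 of 8 HU embryos, from 1.15 CPM in HU 7 to 4.09 CPM in HU 8. All other embryos were at 0, so the groups overlapped. Thinned to 317195 counts, the depth of the smallest library, counts would be left in a mean of 1.21 of 9 control and 2.50 of 8 HU embryos. Smoc1 did not pass the filter on low counts, so the fits across all genes hold 5 of the 6.

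**Figure D1:**
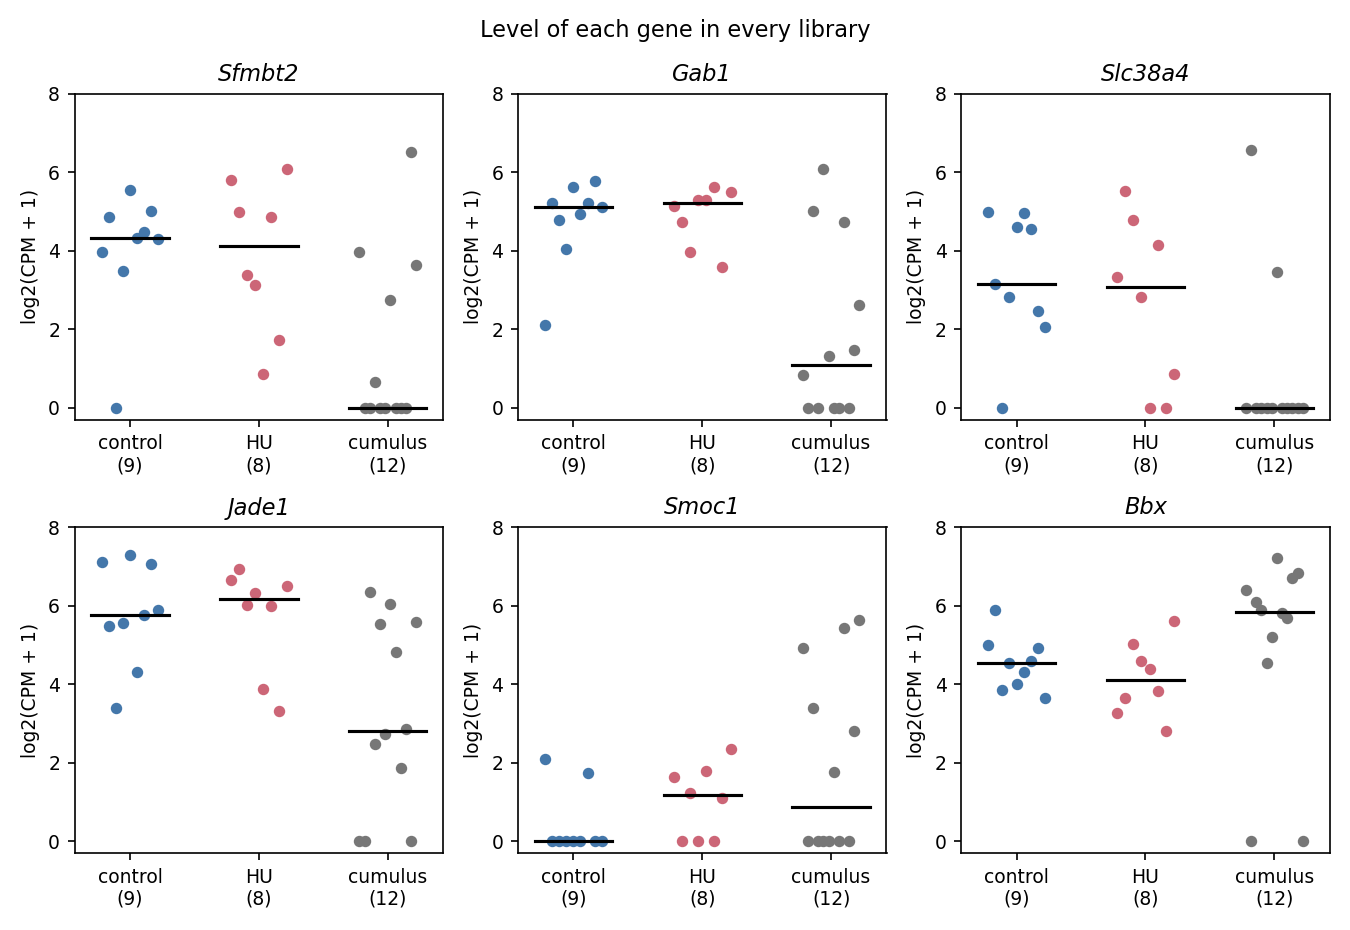
Level of each of the 6 genes in every library, as log2(CPM + 1), for 9 control embryos, 8 HU embryos and 12 cumulus cells; each point is 1 library and the bar is the median. Control and HU embryos overlap for all 6 genes, Smoc1 is at 0 in 7 of 9 control embryos, and most cumulus cells are at 0 for Sfmbt2 and Slc38a4.

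Between genes, levels were compared per length as the deposited FPKM (counts scaled to gene length and library total). In control embryos the order of mean FPKM was Jade1 at 12.2, Gab1 at 6.28, Slc38a4 at 3.62, Bbx at 2.83, Sfmbt2 at 2.29 and Smoc1 at 0.179. Jade1 was above Gab1 in 7 of 9 control embryos and Gab1 above Slc38a4 in 7 of 9. Slc38a4 was above Bbx in only 4 of 9 and Bbx above Sfmbt2 in 6 of 9, so these 3 neighbours did not differ beyond their spread. In HU embryos Jade1 at 11.3, Gab1 at 6.36 and Slc38a4 at 3.29 FPKM held the same places, Sfmbt2 at 2.74 and Bbx at 2.31 FPKM changed places with 4 of 8 embryos on either side, and Smoc1 was again last at 0.398 FPKM.

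HU embryos were set against control embryos to see what the drug changed in these genes. None of the 5 genes tested passed the threshold of 0.05 on the adjusted p of edgeR's quasi-likelihood test, which called 0% of 11476 genes higher and 0% lower. Over all genes, 669 (5.83%) had an unadjusted p under 0.05, and none of the 5 was among them. The estimated log2 fold change of Sfmbt2 was 0.27 (SE 0.64, 95% interval -1.06 to 1.61, edgeR adjusted p = 0.963), while the plain difference in mean log2(CPM + 1) was -0.12 (2-sided exact permutation p = 0.888), so no direction can be given. Gab1 was estimated at 0.05 (-0.73 to 0.83), Jade1 at -0.09 (-1.08 to 0.91), Slc38a4 at -0.13 (-1.86 to 1.60) and Bbx at -0.31 (-1.10 to 0.48), with edgeR adjusted p-values of 0.921 to 0.991 over these 4. Exact permutation p-values were 0.774 for Gab1, 0.944 for Jade1, 0.529 for Slc38a4, 0.328 for Bbx and 0.189 for Smoc1, none adjusted. The intervals are wide: a 2-fold change in either direction lies inside those of Sfmbt2 and Slc38a4. A 2-fold fall also lies inside those of Jade1 and Bbx. The 5 genes had a median log2 fold change of -0.09 against 0.03 over all genes tested. The 2 groups overlapped for all 6 genes, and over all genes tested 1 (0.00871%) had ranges that did not overlap.

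Related genes did not pass the threshold under HU either (edgeR). Of 14 other genes reported as noncanonically imprinted, 9 were tested, with a median of 0.20 and none called. Estimates were above 0 for 8 of these 9, for 2 of the 5 members and for 6045 of all 11476 genes tested. The 2 most abundant of the 9 were Tle3, a co-repressor, at 0.04 and Xist, the RNA that coats the inactive X chromosome, at 0.38. Of 15 paralogs of the 6 genes, 11 were tested, with a median of 0.05 and none called. Sfmbt1, the closest relative of Sfmbt2, was at 522 ± 81.7 scaled CPM in control and 448 ± 128 in HU embryos (SD, n = 9 and 8), and Jade2 at 74.1 ± 22.3 and 49.5 ± 19.7. Per length, Sfmbt1 stood at 64.7 FPKM in control embryos, far above the 2.29 FPKM of Sfmbt2. Of 17 Polycomb and H3K27 genes tested none was called (median 0.09), with Phf1 at -0.23 and Suz12, a core subunit of the complex that writes the mark, at 0.09. Of 9 binding partners none was called (median 0.28), with Ptpn11, the phosphatase that docks on Gab1, at -0.15 and Pik3r1, the regulatory subunit of PI3-kinase, at -0.20. Of 17 canonically imprinted genes none was called (median 0.18), with Impact at 1.04 and Gnas at -0.23.

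Single cumulus cells were compared with the control embryos to show how each gene stood in the cell type whose nucleus was transferred. The labels name no animal for the 12 cells, which therefore count as 1 sample with no test, and a summed level mixes the number of cells that hold the RNA with the amount per cell. Smoc1 was the gene furthest above the embryos: the summed cells held 10.97 CPM (exact Poisson 95% interval 9.69 to 12.4, counting error only) against 0.625 ± 1.26 CPM (SD, n = 9), a ratio of 7.37 with 1 CPM added on both sides. Bbx was next at 61.6 CPM (58.5 to 64.8) against 24.8 CPM, a ratio of 2.43. The other 4 genes were lower in the cells: Sfmbt2 at 8.81 CPM by 2.24-fold, Gab1 at 10.8 CPM by 2.73-fold, Slc38a4 at 6.36 CPM by 2.07-fold and Jade1 at 23.5 CPM by 3.0-fold. These sizes depend on Rn45s, a ribosomal RNA row: with Rn45s left out of the library size the log2 ratios of Sfmbt2, Gab1, Slc38a4 and Jade1 were -0.30, -0.59, -0.22 and -0.68 in place of -1.16, -1.45, -1.05 and -1.59, and those of Smoc1 and Bbx were 3.94 and 2.22 in place of 2.88 and 1.28. Smoc1 alone of the 6 was at least 4-fold apart, joined by Bbx with Rn45s left out. Of 15231 genes compared with Rn45s kept in, 7.73% stood at least 4-fold above the embryos and 31.8% at least 4-fold below. The shares with Rn45s left out are not given here. The median log2 ratio of the 6 genes was -1.10, beside -1.15 over all genes compared; with Rn45s left out the median over all genes was -0.39.

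Few cells carried most of these counts. Slc38a4 had counts in 2 of 12 cells, at 94.0 CPM in cell 2 and 10.1 CPM in cell 7, and cell 2 held 86.3% of the sum. Sfmbt2 had counts in 5 of 12 cells, and cell 11 at 91.0 CPM held 72.2% of the sum. Without cell 2 the log2 ratio of Slc38a4 to control embryos was -2.98 in place of -1.05, and without cell 11 that of Sfmbt2 was -2.59 in place of -1.16. Gab1 was counted in 7 cells, with a highest value of 66.2 CPM, Smoc1 in 6 cells, up to 48.6 CPM, and Jade1 in 9 cells, up to 80.4 CPM. Bbx was the most widely detected, in 10 of 12 cells, with a median of 56.5 and a highest value of 148 CPM. Per length the order in the cells was Bbx (7.02 FPKM), Jade1 (3.98), Smoc1 (3.29), Gab1 (2.21), Slc38a4 (2.21) and Sfmbt2 (1.13), against Jade1 and Gab1 first in embryos. Of 12 other noncanonically imprinted genes compared, 6 stood at least 4-fold above and 2 at least 4-fold below the embryos; of 27 canonically imprinted genes, none was higher and 8 were lower by that size; and of 18 Polycomb genes, 1 was higher and 13 lower. Beside the shares over all genes, 7.73% above and 31.8% below, the 8 of 27 canonically imprinted genes are near the background. The counts of all these lists keep Rn45s in the library size, and were not repeated with Rn45s or single cells left out. Some genes were near the 4-fold limit, with log2 ratios of 2.21 for Xist, 2.15 for Ring1, -2.36 for Eed and -2.38 for Hunk.

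The embryos differed more from each other in some of these genes than in others. The coefficient of variation of scaled CPM was 0.88 for Slc38a4 and 0.72 for Jade1 over the control embryos, where the median over 11476 genes was 0.44. Bbx at 0.56 and Sfmbt2 at 0.58 were nearer to it, and Gab1 at 0.46 was close to it. Over the HU embryos Slc38a4 reached 1.19 and Sfmbt2 0.96, beside a median of 0.49 over all genes, with Bbx at 0.64, Jade1 at 0.58 and Gab1 at 0.43. In genes counted at low levels a part of such spread is counting error.

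A 2-cell score, the mean log2(CPM + 1) of 12 genes that are switched on at genome activation (such as Zfp352, Tdpoz4 and Tcstv3), set the embryos apart along 1 axis, and Sfmbt2 was lower in embryos of high score. The score ran from 3.70 to 4.47 in 11 embryos and from 5.20 to 6.90 in control 3 and HU 2, 3, 4, 5 and 7. The largest gap in it, 0.73, was not much wider than the next, 0.59. Its mean was 4.48 ± 0.93 (SD, n = 9) in control and 5.14 ± 1.18 (SD, n = 8) in HU embryos, a difference of 0.66 (2-sided exact permutation p = 0.214).

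In the 6 embryos of highest score, taken from the lowest score of them to the highest, Sfmbt2 stood at 30.9 CPM in HU 2, 0.813 CPM in HU 5, 9.48 CPM in HU 3, 2.30 CPM in HU 7, 7.74 CPM in HU 4 and 0 CPM in control 3, which is no steady fall. In the other 11 embryos it was at 10.1 to 66.3 CPM. All of the 6 but HU 2 were thus below all of the 11.

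In a fit of all genes on the score with treatment as a term, Sfmbt2 fell by 1.33 on the log2 scale per unit of score (SE 0.28, 95% interval -1.90 to -0.76, edgeR adjusted p = 0.00486). Of 11476 genes, 167 (1.46%) were called lower with the score and 585 (5.1%) higher. Leaving out any 1 embryo kept Sfmbt2 past the threshold, with slopes from -1.72 to -1.14 and edgeR adjusted p-values up to 0.0336, the last without control 3. The group-centred correlation over the 17 embryos was r = -0.82 (permutation p = 0.00207, 0.0248 adjusted over 12 relations) and rho = -0.81 (permutation p = 0.00045, adjusted 0.0054). Without control 3 and HU 4, the embryos farthest from the median score, r was -0.77 (permutation p = 0.0341, adjusted 0.205) and rho was -0.74. By this test Sfmbt2 then no longer passed. The part of the smaller number of embryos in this loss was not tested.

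Sfmbt2 had a negative correlation with the score in both groups. In the control embryos r was -0.95 (n = 9, exact permutation p = 0.0124, adjusted 0.149 over 24 within-group relations) and in the HU embryos -0.73 (n = 8, exact permutation p = 0.0484, adjusted 0.290). Without control 3 the r of the control embryos was -0.49 (n = 8, exact permutation p = 0.218). Within the 11 embryos below the largest gap r was -0.60 (permutation p = 0.0525). Within the 6 above it r was -0.47 (exact permutation p = 0.332), so the relation was not shown inside either set. For both sets r was not centred by treatment, and control and HU embryos were permuted together. The 11 included HU 1, HU 6 and HU 8, with Sfmbt2 at 54.5, 27.9 and 66.3 CPM. The part of treatment in the r of the 11 was not tested. The edgeR slope was -2.56 in the control embryos alone (adjusted p = 0.0487) and -1.13 in the HU embryos alone (adjusted p = 0.0954). The slope in the control embryos alone was not fitted without control 3. The score of control 3 was 6.90, and the other control embryos ran from 3.91 to 4.47.

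Embryos of high score also had fewer detected genes (r = -0.70, rho = -0.56, permutation p = 0.00249 and 0.0367, adjusted 0.0149 for r over 6 library measures; r = -0.54 without control 3 and HU 4). Detection ranged from 12887 genes in HU 4 to 15421 genes in HU 8. With the number of detected genes as a term the slope of Sfmbt2 was -1.36 (95% interval -2.22 to -0.49), with an edgeR adjusted p of 0.201, and in that fit no gene was called lower. With library counts as a term it was -1.32 (edgeR adjusted p = 0.0101), and with spike-in scaling -1.49 (edgeR adjusted p = 0.0108). The summed cumulus markers had r = 0.45 and rho = 0.43 with the score (permutation p = 0.0685 and 0.0650, adjusted 0.206 for r). The part of detection and of cumulus RNA in the result was not tested beyond these values.

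The other members had slopes below 0 that did not pass: Jade1 at -0.51 (95% interval -1.03 to 0.00), Slc38a4 at -0.47 (-1.75 to 0.80), Gab1 at -0.21 and Bbx at -0.18, with edgeR adjusted p-values of 0.229 to 0.700. Without control 3 the slope of Jade1 was -0.30 (edgeR adjusted p = 0.606), that of Slc38a4 turned to 0.032 (0.988) and that of Bbx was -0.090 (0.888), and without HU 4 that of Jade1 was -0.91 (0.0667). Without HU 4 the slopes of Gab1 and Bbx were -0.35 and -0.29, without HU 7 that of Slc38a4 was -0.26 and that of Bbx -0.11, without HU 8 those of Slc38a4 and Bbx were -0.78 and 0.027. The difference between the slopes of these genes and that of Sfmbt2 was not tested. Jade1 had r = -0.56 and rho = -0.49 with the 2-cell score (permutation p = 0.0267 and 0.0433, adjusted 0.160 and 0.173). Gab1 had a rho of -0.63 with it (permutation p = 0.00844, adjusted 0.0506) beside an r of -0.25. Without control 3 and HU 4 the r of Gab1 was -0.52 (permutation p = 0.00477, adjusted 0.0572) and its rho -0.77. For Jade1 the r without these embryos was -0.58 (permutation p = 0.0684, adjusted 0.274). In the control embryos alone the r of Jade1 was -0.76 (exact permutation p = 0.00810, adjusted 0.149 over 24 within-group relations). Without control 3 it was -0.57 (exact permutation p = 0.141), and in the HU embryos -0.40 (exact permutation p = 0.311). The r of Slc38a4 in the control embryos was -0.63, and 0.76 without control 3 (exact permutation p = 0.109 and 0.0375). In the HU embryos it was -0.15. Smoc1, Bbx and Slc38a4 had r of -0.19, -0.19 and -0.35 with the 2-cell score, all with adjusted permutation p-values over 0.5.

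The median slope of the 5 members was -0.47, beside -0.03 over all genes tested. Of the 9 other noncanonically imprinted genes and the 11 paralogs tested, none was called with the 2-cell score (median slopes -0.09 and -0.12, edgeR). Of 17 canonically imprinted genes 2 were called lower, beside 1.46% of all genes tested. They were Phlda2, a brake on placental growth, with a slope of -1.70 (edgeR adjusted p = 0.0173) and Kcnq1ot1, a long noncoding RNA, with -0.81 (0.0223). With detected genes as a term, no gene was called lower, these 2 included. Called higher were 1 of 17 Polycomb genes and 1 of 9 partners, beside 5.1% of all genes tested. They were Mtf2, an accessory subunit of Polycomb repressive complex 2, with 0.55 (edgeR adjusted p = 0.00245) and Grb2, the adaptor that couples Gab1 to receptors, with 0.66 (0.0289). These 4 genes are named after their values were seen. With the 2-cell score as a term, the estimate of Sfmbt2 in HU against control embryos was 0.99 (95% interval -0.07 to 2.04, edgeR adjusted p = 0.994).

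**Figure D2:**
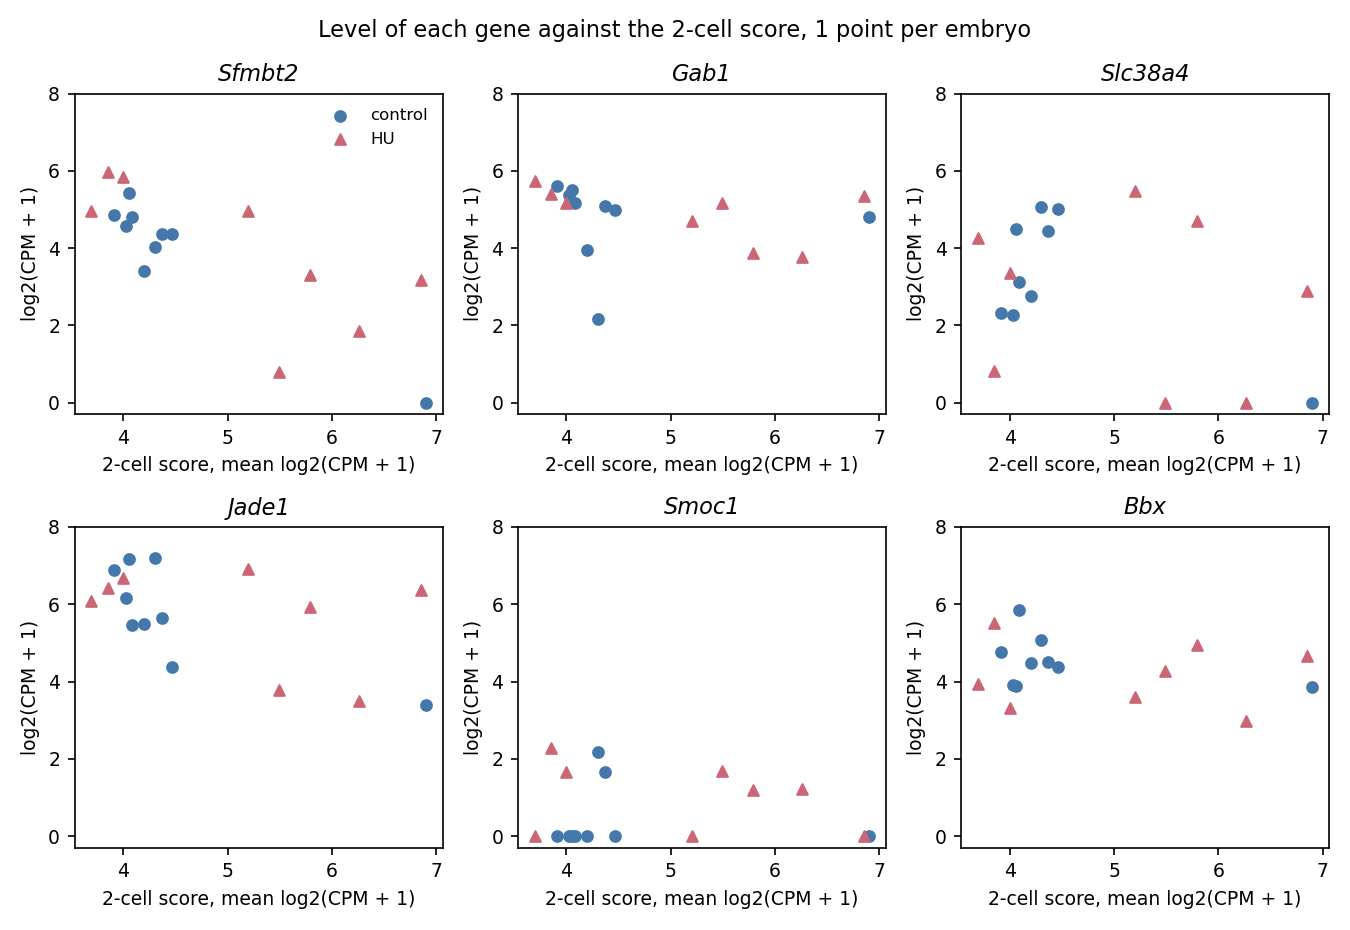
Level of each of the 6 genes, as log2(CPM + 1) with library sizes scaled by TMM, against the 2-cell score, for 9 control embryos (circles) and 8 HU embryos (triangles). Sfmbt2 is lower in 5 of the 6 embryos of highest score than in the other 11, with control 3 at 0 at a score of 6.90, while Bbx has the smallest of the 5 fitted slopes, -0.18.

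**Figure D3:**
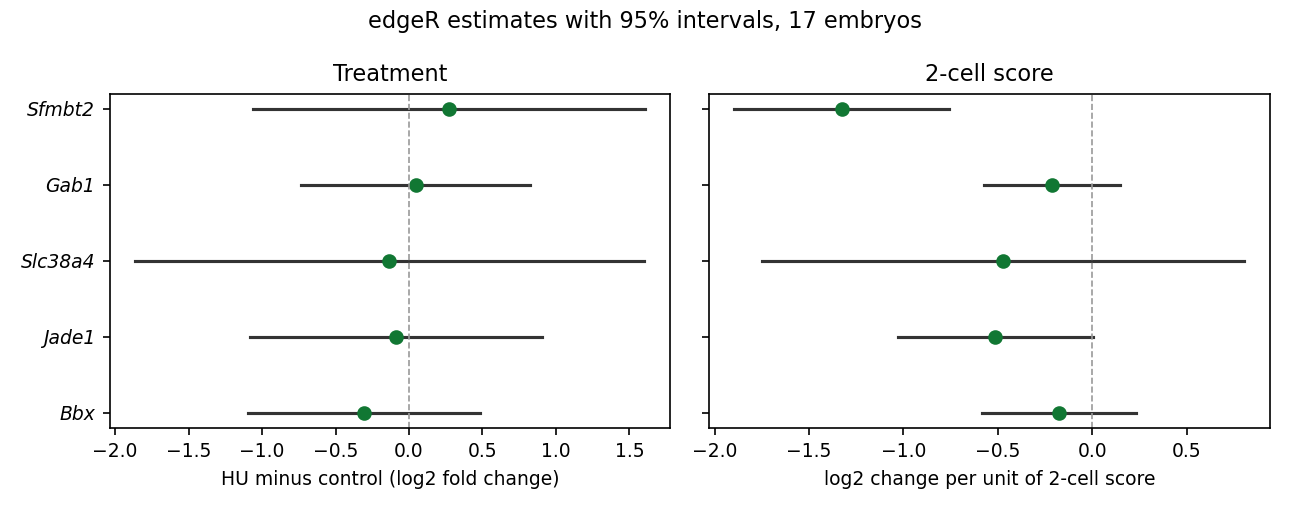
edgeR estimates for the 5 genes tested, with bars for 95% intervals: on the left the log2 fold change of HU against control embryos, on the right the log2 change per unit of 2-cell score. All 5 intervals for HU include 0; for the 2-cell score that of Sfmbt2, -1.90 to -0.76, excludes 0.

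A maternal score, the mean of 19 transcripts that the egg had stored (such as Zp3, Gdf9 and Nlrp5), had no relation to the 6 genes that passed: r lay between -0.33 for Gab1 and 0.30 for Sfmbt2, with adjusted permutation p-values of 0.570 or more. The fit of all genes on this score called 0% of 11476 genes in either direction, and the members' edgeR adjusted p-values were 0.877 or more. Within the control embryos Slc38a4 had r = 0.72 with this score (exact permutation p = 0.0295, adjusted 0.236 over 24 within-group relations). Within the HU embryos its r was -0.05 (exact permutation p = 0.897).

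Among the 15 pairs of the 6 genes, Sfmbt2 and Jade1 varied together over the 17 embryos, with r = 0.80 (permutation p = 0.00038, 0.0057 adjusted over 15 pairs) and rho = 0.67 (permutation p = 0.00303, adjusted 0.0454). Without control 3 and HU 5, which were farthest from the median of Sfmbt2, r was 0.62 (permutation p = 0.0128, adjusted 0.0958) and no longer passed. Slc38a4 had r = 0.62 with Jade1 (rho = 0.51, adjusted permutation p = 0.0810 and 0.195) and 0.59 with Sfmbt2 (rho = 0.35, adjusted 0.0992 and 0.588), and without the same 2 embryos these were 0.38 and 0.22. All 3 genes were low in control 3, HU 5 and HU 7: Jade1 was at 9.44, 13.8 and 8.92 CPM there, Sfmbt2 at 0, 0.813 and 2.30 CPM and Slc38a4 at 0 CPM. Gab1, Smoc1 and Bbx had no pair that passed, with r from -0.45 for Gab1 and Smoc1 to 0.28 for Gab1 and Sfmbt2. The rho of Gab1 and Sfmbt2 was 0.55 (permutation p = 0.0263, adjusted 0.195). Without control 3 and HU 5 their r was 0.55 (permutation p = 0.0126, adjusted 0.0958).

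**Figure D4:**
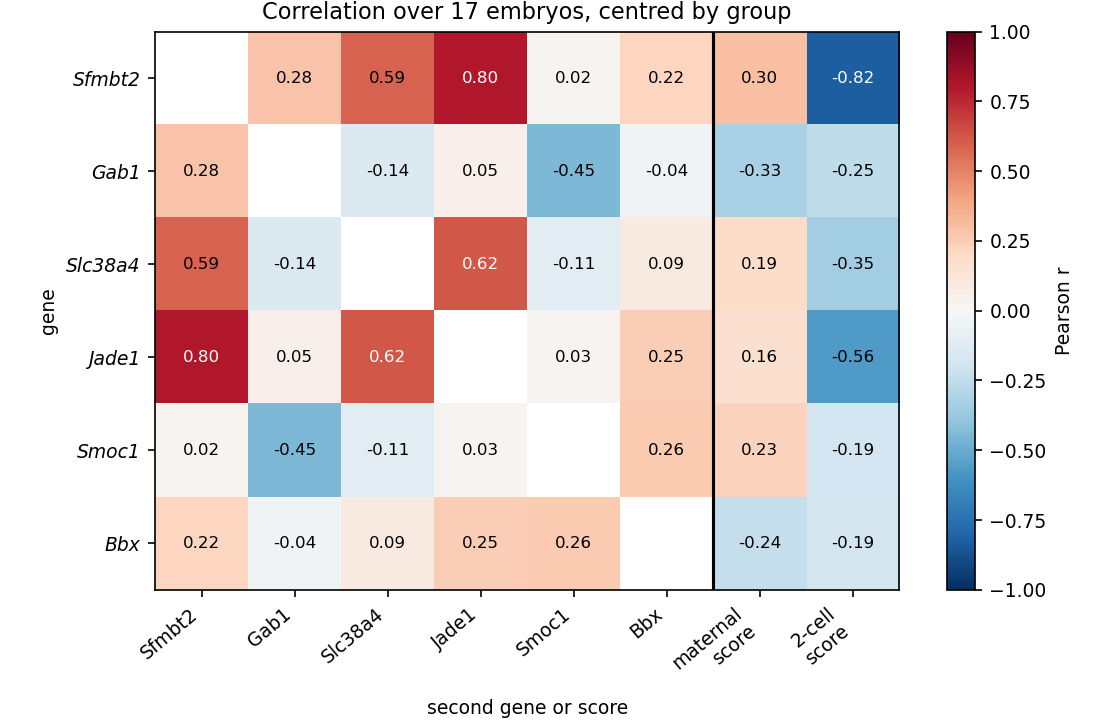
Pearson r over 17 embryos between the 6 genes and with the maternal and 2-cell scores, on log2(CPM + 1) values centred by treatment group. Sfmbt2 and Jade1 (0.80) and Sfmbt2 and the 2-cell score (-0.82) are the strongest cells; Gab1, Smoc1 and Bbx stay pale among themselves and with the other genes except Gab1 with Smoc1 (-0.45).

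The genes whose pattern was most like each member were found by Spearman's rho over the 17 embryos among 8598 genes that passed the filter with at least 10 scaled CPM on average. For Sfmbt2 they were Tjp3 (0.89), a tight junction protein, Il15ra (0.89), a cytokine receptor chain, and Ralgds (0.88), which activates Ral GTPases. For Jade1 they were Alg5 (0.87), Patz1 (0.87) and Plekhb2 (0.86). For Gab1 they were Ralb (0.85), a Ral GTPase, Eif4ebp1 (0.77), a repressor of cap-dependent translation, and Slc12a4 (0.75), an ion cotransporter. For Slc38a4 they were Trim30a (0.80), Gnat1 (0.80) and Gadd45g (0.79), and for Bbx Tex19.2 (0.87), Snapin (0.78) and Rnf115 (0.76). These are the highest of many values over few embryos and are given as a description.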

How the data were processed

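The authors deposited raw counts per gene and FPKM per gene for 29 libraries. The submitters' processing notes name mm10, STAR 2.7.3a, R 4.0.2 and FastQC; the counter, the annotation and the use of strand are not given in the sources at hand. The deposited FPKM equals the count over library sum and gene length. ERCC spike-ins (92 rows) entered neither tests nor library sizes.

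HU against control embryos was tested with edgeR 4.0.16 in R 4.3.3 (quasi-likelihood test, TMM, filterByExpr, Benjamini-Hochberg over all genes, threshold 0.05). Alternatives used DESeq2 1.42.0 and limma 3.58.1. "Scaled CPM" uses TMM library sizes. Single values used exact permutation over embryos, correlations 100000 permutations within groups. The fits on scores were added after seeing the data. The procedures were tested on simulated data. Females and days of collection are not labelled, so a p-value here reflects embryo-to-embryo spread, which may be technical. Replicate numbers did not pair embryos: of 8 same-numbered pairs, 1 deviated together with a correlation over 0.1.

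The members and lists were chosen with earlier results of these data known. The genes named are the members, of each list those past the threshold or otherwise the 2 most abundant, and the 3 genes most like each member.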

Additional observations from a re-analysis of the deposited data

Results flagged for a closer look

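In 16 sets of values, the 6 genes and both scores in control and in HU embryos, 3 held a value far from the rest by a gap test at 95%, 2 of them from the same embryo, which chance alone would do in about 1 in 20 sets. Control 3 was the lowest control embryo for Sfmbt2, at 0 on the log2(CPM + 1) scale, with the next control embryo at 3.41. The same embryo was the highest for the 2-cell score, at 6.90 against 4.47 for the next control embryo. Control 1 was the lowest for Gab1, at 2.17 against 3.96. Library measures of control 3 were 1801261 counts and 13875 detected genes, the lowest of the control embryos in both, and its maternal score of 7.50 was inside the control range. Its summed cumulus markers were 118 CPM, the highest of the control embryos. Control 1 had 3033707 counts and 14281 detected genes, inside the control range. The part of these measures in the distances was not tested.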

How the results depend on the processing

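No member was called for HU under any of the 17 fits that leave out 1 embryo or the 11 other alternatives. Over all genes, DESeq2 called 3 and leaving out 1 embryo gave 0 to 1 calls. Genes at an unadjusted p under 0.05 numbered 1990 with no filter, 60 with all 3 groups in the fit, 1025 with DESeq2 and 433 to 934 with 1 embryo left out, lowest without HU 5. Signs of the HU estimates were not stable: Sfmbt2 turned to -0.20 with limma-voom and -0.029 on log2(FPKM + 1), and with spike-in scaling, which moved the median of all genes to 0.19, Slc38a4 turned to 0.19 and Jade1 to 0.15. Slc38a4 moved most, from -0.13 to -1.03 with limma-voom and -1.06 with the block below. Leaving out 1 embryo gave -0.070 to 0.48 for Sfmbt2, -0.11 to 0.17 for Gab1, -0.72 to 0.11 for Slc38a4 and -0.25 to 0.11 for Jade1, while Bbx stayed below 0 throughout. With replicate number as a block (embryos 1 to 8), Jade1 was 0.087 and no gene was called; same-numbered embryos had deviations correlated by -0.10 to 0.19, and none of the 8 control embryos correlated best with its own number.

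In the cumulus comparison, the number of members at least 4-fold apart was 2 with Rn45s left out and 0 on deposited FPKM. With 1 cell left out it was 1 to 2 (2 without cell 2, 3 or 11). The number was 6 at a fold of 2 and 0 at a fold of 8. The shares of all genes at these other settings and folds are not given here, so these numbers have no background. In the main setting the median log2 ratio over all genes compared, -1.15, was itself past a fold of 2. Without the embryos farthest from the median, 0 of 12 score relations and 0 of 15 pairs passed. With the 2-cell score r was then -0.77 for Sfmbt2 and -0.52 for Gab1. On the 2-cell score, genes called higher and lower numbered 27 and 2 in control embryos alone, 232 and 17 in HU embryos alone, 27 and 0 with detected genes as a term, 385 and 76 with library counts as a term, 124 and 18 with spike-in scaling, and with 1 embryo left out 261 to 692 and 41 to 204, fewest without control 3. The slope of Sfmbt2 was negative in all of these and missed the threshold in HU embryos alone (-1.13) and with detected genes as a term (-1.36). That of Slc38a4 turned to 0.044 with the latter and ran from -0.78 to 0.032 with 1 embryo left out, and that of Bbx from -0.29 to 0.027. The cause of these changes was not tested. Depth limits Smoc1 in embryos most, where a count of 0 allows up to 1.67 CPM.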

Other observations

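Some relatives and other imprinted genes below the filter differed between the groups in how many embryos held a count or in mean level. All are named after their values were seen, and the share of all low genes with such differences is not given here. Slc38a5, an amino acid transporter of the same family as Slc38a4, had counts in 1 of 9 control embryos (0.208 ± 0.625 scaled CPM, SD) and in 6 of 8 HU embryos (4.25 ± 4.17). Rasgrf1, a canonically imprinted gene that encodes an exchange factor for Ras, had counts in 1 of 9 control embryos (0.155 ± 0.466) and in 5 of 8 HU embryos (1.63 ± 1.78). Ascl2, an imprinted transcription factor of the trophoblast, had counts in 7 of 9 control and 6 of 8 HU embryos, at 8.50 ± 8.91 and 1.24 ± 1.51. Nap1l5, a canonically imprinted gene, had counts in 7 of 9 control embryos (4.05 ± 3.88) and in 2 of 8 HU embryos (2.52 ± 6.52). In the edgeR fit with no filter none of these 4 passed, with an adjusted p of 0.444 for the first 3 and 0.914 for Nap1l5. Gab3, a paralog of Gab1, had counts in 3 of 9 control embryos (0.441 ± 0.847) and in 5 of 8 HU embryos (2.72 ± 3.76). Sall3, another noncanonically imprinted gene, had counts in 0 of 9 and 2 of 8. Their adjusted p in the same edgeR fit was 0.481 and 0.444.

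In the microRNA cluster inside Sfmbt2, the row of Mir466m reached 49 counts in 1 cumulus library and at most 1 count in any embryo.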
